A study of Mus musculus with 9 samples.

Results

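Transcripts of 10 protein-coding genes that lie beside the imprinted Dlk1-Dio3 cluster on mouse chromosome 12 were counted in Gzf1-knockout and wild-type embryonic stem cells. The genes were chosen by symbol from the deposited table of 30324 rows, where each of the 10 has 1 row, and Ppp2r5c shares its row with the transcript AK012478. Gzf1 encodes a zinc finger protein that the title of the series places at this cluster together with Zfp57, a factor that protects imprints. The 5 knockout libraries comprised replicates 1 and 2 from RGM cells, sequenced in run2, and replicates 3 to 5 from V6.5 cells, sequenced in run1. The 4 wild-type libraries comprised replicates 1 and 2 from RGM cells of run2, replicate 3 from V6.5 cells of run1 and replicate 4 from a Cas9-GFP line of run1. Both genotypes were kept with LIF and serum over irradiated embryonic fibroblasts, which were depleted ahead of harvest. The labels do not state whether a knockout line is a single clone or where in Gzf1 the edit lies.

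The Dlk1-Dio3 cluster is expressed by parental origin. Dlk1, Rtl1 and Dio3 are transcribed from the paternal chromosome, and the noncoding RNAs Meg3, Rian and Mirg from the maternal one, under the control of a methylated region between Dlk1 and Meg3. Genes on either side are known as biallelic, that is, transcribed from both chromosomes, and so serve as a local comparison for a change that follows the imprint. The counts carry no information on alleles, so biallelic expression was not measured here.

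On the side of Dlk1 lie Evl, Degs2, Yy1, Slc25a29, Wars and Wdr25, in that order towards the cluster (positions on mm10 from GENCODE M21). Evl, an actin regulator of the Ena/VASP family, spans 108554720 to 108688516 on the plus strand and ends 764.3 kb before the start of Dlk1. Degs2, a sphingolipid desaturase and hydroxylase, lies on the minus strand (108678711 to 108702315), and its annotated span overlaps that of Evl tail to tail by 9806 bases. Yy1, a zinc finger transcription factor, spans 108792973 to 108820148, and Slc25a29, a mitochondrial carrier of basic amino acids, 108825873 to 108835883. Wars, the cytoplasmic tryptophanyl-tRNA synthetase (108860030 to 108894174, minus strand), and the WD repeat gene Wdr25 (108893631 to 109028452, plus strand) overlap head to head by 544 bases. Wdr25 is the nearest of the 6, ending 424.4 kb before Dlk1. No source used here gives the strand setting of the counting, so reads in these overlaps cannot be told apart.

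On the side of Dio3 lie Ppp2r5c, Dync1h1, Hsp90aa1 and Cinp. Ppp2r5c encodes a B56 regulatory subunit of protein phosphatase 2A and begins 166.0 kb after the end of Dio3 (110447120 to 110583062). Dync1h1 encodes the heavy chain of cytoplasmic dynein (110601452 to 110666945), Hsp90aa1 the stress-inducible cytosolic Hsp90 (110690605 to 110702728) and Cinp a CDK2-interacting protein of DNA replication and the checkpoint (110872610 to 110889145). Hsp90aa1 has a close relative, Hsp90ab1, and reads common to both would be uncertain.

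Upstream sequence was available for 6 of the 10 genes (Evl, Degs2, Yy1, Slc25a29, Ppp2r5c and Dync1h1; RefSeq, GRCm38.p6) and not for Wars, Wdr25, Hsp90aa1 and Cinp. The 250 bases before a start site are shown for 4 of them, since Evl and Dync1h1 differed between cell lines in opposite directions and Degs2 and Slc25a29 were close to the counting floor. Capitals mark CG dinucleotides, the sites of CpG methylation. The windows are chr12:108554470-108554719 (plus strand) for Evl, chr12:110601145-110601394 (plus) for Dync1h1, chr12:108702307-108702556 (minus) for Degs2 and chr12:108835877-108836126 (minus) for Slc25a29.
Evl: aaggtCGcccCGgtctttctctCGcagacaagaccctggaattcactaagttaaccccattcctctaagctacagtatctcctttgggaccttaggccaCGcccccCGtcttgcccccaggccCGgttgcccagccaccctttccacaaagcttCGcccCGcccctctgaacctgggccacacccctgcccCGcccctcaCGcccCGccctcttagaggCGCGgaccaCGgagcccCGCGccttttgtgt
Dync1h1: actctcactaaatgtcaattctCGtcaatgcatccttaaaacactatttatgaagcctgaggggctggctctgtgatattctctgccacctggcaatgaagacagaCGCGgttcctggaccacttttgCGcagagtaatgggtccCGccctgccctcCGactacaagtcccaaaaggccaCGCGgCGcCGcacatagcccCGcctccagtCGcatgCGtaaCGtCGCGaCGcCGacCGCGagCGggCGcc
Degs2: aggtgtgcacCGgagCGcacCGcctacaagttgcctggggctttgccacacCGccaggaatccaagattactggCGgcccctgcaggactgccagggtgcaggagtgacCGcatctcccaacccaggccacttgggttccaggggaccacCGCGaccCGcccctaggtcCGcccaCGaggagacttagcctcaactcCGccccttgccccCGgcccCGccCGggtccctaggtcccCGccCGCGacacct
Slc25a29: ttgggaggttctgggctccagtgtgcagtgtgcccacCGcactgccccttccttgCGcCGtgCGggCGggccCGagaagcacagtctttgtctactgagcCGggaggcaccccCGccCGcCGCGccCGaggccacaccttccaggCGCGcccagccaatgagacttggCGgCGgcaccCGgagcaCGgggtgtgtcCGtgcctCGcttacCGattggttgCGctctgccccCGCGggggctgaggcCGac
These windows held 16 CG dinucleotides for Evl, 22 for Dync1h1, 18 for Degs2 and 25 for Slc25a29, against a median of 6 over all 32851 windows of the same length, of which 17.9% held at least 20. A second start site of Evl (chr12:108605516-108605765) had 2 CG, below that median. The windows not shown held 36 CG for Yy1, and 31 and 5 CG for the 2 start sites of Ppp2r5c. The hexamer TGCCGC, the motif of Zfp57, searched on both strands, occurred 2 times in the first Ppp2r5c window and 1 time in the Slc25a29 window, and 8.7% of all windows held it. The other 6 of the 8 windows did not contain these letters. GCCATNTT, a core of the YY1 motif, was in 0 of the 8 windows and in 3.9% of all windows.

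Library totals were 2568489 to 3704162 counts in the 4 RGM libraries and 4872127 to 7072697 in the 5 run1 libraries. Gzf1 itself was at 1.66 to 14.2 CPM (counts scaled to library size) in the knockout and 8.11 to 30.0 CPM in the wild-type libraries. The genotypes overlapped in run1, where knockout replicate 4 at 9.40 CPM lay above wild-type replicate 3 at 8.11 CPM. Its log2 fold change was -1.45 (SE 0.42, adjusted p = 0.9998). A 3' tag outside the edited part does not check the edit. All 10 stem cell markers, Pou5f1, Sox2 and Nanog among them, were above 3 counts in every library. Their summed levels were 6007 to 6345 CPM in knockout RGM and 6335 to 6859 CPM in wild-type RGM libraries. In run1 they were 5463 to 6920 CPM in knockout and 5803 to 6922 CPM in wild-type libraries. Single markers differed more than the sums. Between RGM and run1 libraries 4 of the 10 were called, 3 higher and 1 lower in RGM, beside 45.3% of all tested genes. The log2 fold changes of the 10 ran from -1.44 to 3.30.

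Loss of Gzf1 was not accompanied by a detectable change of any of the flanking genes. Of the 10 genes 8 passed the low-count filter, and each of the 8 had at least 16 counts in every library, so none entered the test through 1 genotype alone. In the comparison of all knockout with all wild-type libraries, with run as a second term, 0 of the 8 passed the threshold of an adjusted p under 0.05 (edgeR). At an unadjusted p under 0.05 the number was 0 as well, and DESeq2 gave 0 by either criterion. Over all 12645 tested genes 0.0316% passed the adjusted threshold, all of them lower in the knockout (0% higher), and 2.32% had an unadjusted p under 0.05. The log2 fold changes of the 8 genes lay between -0.21 and 0.20, 4 of them positive and 4 negative, with a median of -0.01 beside 0.01 over all tested genes.

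The interval around each estimate gives the size of change that the libraries could have missed. For the 7 genes other than Wdr25, the 95% intervals over all libraries reached at most a 1.44-fold increase and at most a 1.33-fold decrease. Within RGM alone they reached 1.61-fold in either direction, and within run1 alone a 1.62-fold increase and a 1.46-fold decrease. Over all libraries the widest interval of the 8 belonged to Wdr25, from -0.84 to 0.42 on the log2 scale.

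Evl was at 79.4 and 79.7 CPM in knockout and 79.5 and 79.3 CPM in wild-type RGM libraries. Its run1 values were 61.1, 58.7 and 59.8 CPM in the knockout libraries, against 59.5 CPM in wild-type V6.5 and 44.7 CPM in wild-type Cas9-GFP cells. The genotypes coincided within RGM and within V6.5 cells, and the Cas9-GFP library stood below all others. The log2 fold change was 0.11 (SE 0.13, interval -0.17 to 0.39), and it ranged from 0.0052 without the Cas9-GFP library to 0.18 without wild-type replicate 3.

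Yy1 was at 111 and 105 CPM in knockout and 106 and 127 CPM in wild-type RGM libraries. In run1 the knockout libraries had 158, 209.9 and 140.5 CPM, against 159 CPM in wild-type V6.5 and 207 CPM in Cas9-GFP cells. The genotypes overlapped in either run, and the 2 libraries with replicate number 4 were the highest of all. The knockout effect was -0.11 on the log2 scale (SE 0.14, interval -0.42 to 0.20). It was -0.20 without knockout replicate 4 and -0.019 without the Cas9-GFP library.

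Wars had 72.1 and 82.5 CPM in knockout and 75.5 and 63.5 CPM in wild-type RGM libraries. The run1 values were 103, 98.2 and 112 CPM in knockout libraries, against 106 CPM in wild-type V6.5 and 105 CPM in Cas9-GFP cells. Knockout and wild-type libraries overlapped within each run, with a log2 fold change of 0.055 (SE 0.12, interval -0.21 to 0.32), which was 0.0015 without wild-type replicate 2 and 0.083 without knockout replicate 4. Its head-to-head neighbour Wdr25 had 12.5 and 6.31 CPM in knockout and 13.7 and 7.89 CPM in wild-type RGM libraries. In run1 Wdr25 was at 6.64, 7.94 and 13.1 CPM in the knockout, against 12.8 CPM in wild-type V6.5 and 8.48 CPM in Cas9-GFP cells. High and low values of Wdr25 occurred in either genotype and either run, and its log2 fold change was -0.21 (SE 0.30). That value moved between -0.40 without knockout replicate 5 and -0.059 without wild-type replicate 3.

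On the side of Dio3, Ppp2r5c was at 191 and 180.0 CPM in knockout and 202 and 215 CPM in wild-type RGM libraries. It had 293, 233 and 339.8 CPM in the knockout libraries of run1, against 296 CPM in wild-type V6.5 and 203 CPM in Cas9-GFP cells. Within RGM the pair of knockout values was under the pair of wild-type values, and in run1 the genotypes overlapped. Pairs of 2 libraries often separate by chance, and the share of all tested genes that did so within RGM was not counted. The log2 fold change was 0.040 (SE 0.15, interval -0.28 to 0.36), and it lay between -0.11 and 0.12 when single libraries were left out, the lower value being without the Cas9-GFP library.

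Dync1h1 had 102 and 112 CPM in knockout and 104 and 86.4 CPM in wild-type RGM libraries. Its run1 levels were 185, 159.8 and 191 CPM in knockout libraries, against 192 CPM in wild-type V6.5 and 113 CPM in Cas9-GFP cells. The V6.5 libraries of both genotypes lay together, and the Cas9-GFP library lay well below them. The log2 fold change of 0.20 (SE 0.15, interval -0.13 to 0.53) was the most positive of the 8. It depended on the 2 wild-type run1 libraries, being 0.37 (SE 0.16, unadjusted p = 0.034) without wild-type V6.5 and 0.039 (SE 0.14) without the Cas9-GFP library, and neither value passed after adjustment (edgeR).

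Hsp90aa1 was at 355 and 379 CPM in knockout and 455 and 414 CPM in wild-type RGM libraries. In run1 the knockout libraries had 429, 407 and 423 CPM, against 521 CPM in wild-type V6.5 and 329 CPM in Cas9-GFP cells. Within RGM the 2 knockout values were under the 2 wild-type values, a separation with the limit given for Ppp2r5c. In run1 the 3 knockout libraries lay between the 2 wild-type libraries. The log2 fold change was -0.12 (SE 0.14, interval -0.41 to 0.17), and without the Cas9-GFP library it was -0.27 (SE 0.11, adjusted p = 0.9999, unadjusted p = 0.033), against 0.0038 (SE 0.14) without wild-type V6.5.

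Cinp had 36.2 and 43.0 CPM in knockout and 39.9 and 36.7 CPM in wild-type RGM libraries. Its run1 values were 80.1, 65.2 and 77.0 CPM in knockout libraries, against 88.3 CPM in wild-type V6.5 and 75.6 CPM in Cas9-GFP cells. The genotypes overlapped in both runs, and the log2 fold change was -0.068 (SE 0.14, interval -0.36 to 0.23), or -0.13 to 0.011 with single libraries left out. For none of the 8 genes did all knockout libraries lie on one side of all wild-type libraries, a separation seen in 0.443% of all tested genes.

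**Figure D1:**
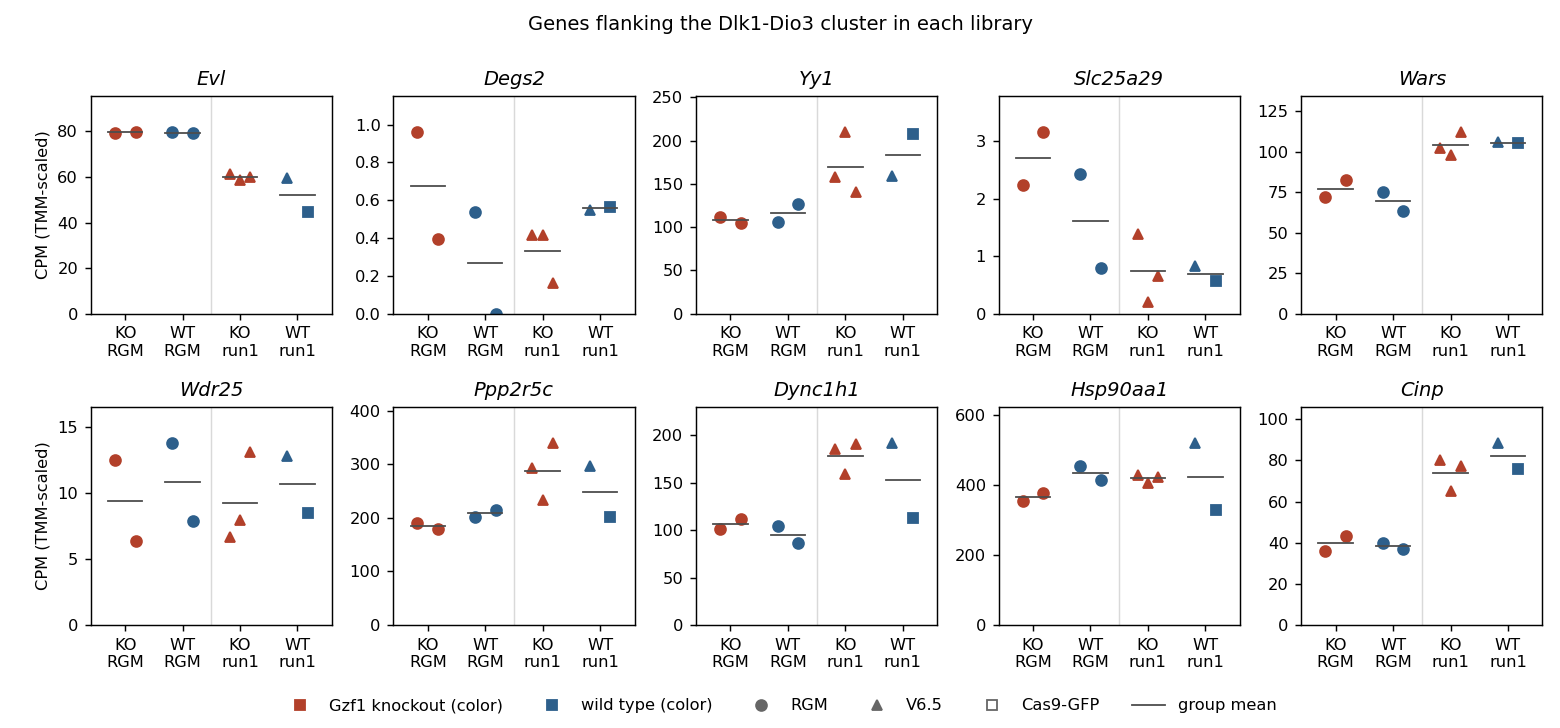
CPM of each flanking gene in every library (y axis from 0, TMM-scaled) for knockout and wild-type libraries of RGM cells and of run1, with horizontal lines at group means. Knockout and wild-type points overlap over all libraries in each panel, while Cinp ranges from 36.2 to 43.0 CPM in RGM and from 65.2 to 88.3 CPM in run1 libraries.

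Degs2 and Slc25a29 were close to the counting floor in these cells. Degs2 had 3, 1, 3, 2 and 1 counts in knockout replicates 1 to 5, against 2, 0, 4 and 3 counts in wild-type replicates 1 to 4. Slc25a29 had 7, 8, 10, 1 and 4 counts in the knockout, against 9, 2, 6 and 3 counts in the wild-type libraries. A count of 3, taken as the floor, corresponds to 0.412 to 1.18 CPM depending on the library, and 1 Degs2 value of 9 exceeded it. Both genes failed the filter and had no test in the main comparison. Without the filter the knockout effect was -0.092 (SE 0.85) for Degs2 and 0.39 (SE 0.58) for Slc25a29 on the log2 scale (edgeR, adjusted p = 0.9987 for each), so a change of either was not detectable at this depth. Evl, which overlaps Degs2 tail to tail, had 201 to 442 counts in the same libraries.

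The knockout effect was also read within each run, with few libraries and few calls among all genes. Within RGM cells (2 knockout and 2 wild-type libraries) 0 of the 8 genes passed in edgeR, 0 had an unadjusted p under 0.05 and DESeq2 gave 0 and 0, with 0% of all tested genes called and 0.822% at an unadjusted p under 0.05. The log2 fold changes ran from -0.25 for Hsp90aa1 (SE 0.21) to 0.16 for Dync1h1 (SE 0.24). Within run1 (3 knockout and 2 wild-type libraries) the counts were again 0 by both tools and both criteria, with 0.0158% of all tested genes called and 3.84% at an unadjusted p under 0.05. There the values ran from -0.21 for Wdr25 (SE 0.41) to 0.23 for Dync1h1 (SE 0.22). Some estimates differed in sign between RGM and run1, among them Ppp2r5c (-0.17, SE 0.22 in RGM and 0.21, SE 0.20 in run1), Wars (0.15, SE 0.19 and -0.016, SE 0.17) and Cinp (0.044, SE 0.22 and -0.15, SE 0.19). The knockout effect did not differ detectably between run2 and run1 for any of the 8 (interaction, 0 called by edgeR and DESeq2, 0 at an unadjusted p under 0.05 by either; 0% of all tested genes called and 1.44% at an unadjusted p under 0.05). Ppp2r5c had the largest such difference, -0.38 on the log2 scale (SE 0.30).

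Of 7 genes listed for the cluster 4 were tested in the same fit, 0 of which passed the threshold in edgeR or DESeq2, while 3 had an unadjusted p under 0.05 in either. Meg3 had a log2 fold change of -2.31 (interval -3.39 to -1.24, adjusted p = 0.97) and Mirg of -3.28 (interval -4.61 to -1.94, adjusted p = 0.31), each in a row shared with microRNAs of the cluster. Dlk1 had -0.85 (interval -1.43 to -0.26, adjusted p = 0.9998). The intervals of the 8 flanking genes all lay above those of Meg3 and Mirg, while those of Yy1, Wdr25, Ppp2r5c, Hsp90aa1 and Cinp overlapped that of Dlk1. Begain, which lies between Wdr25 and Dlk1 and codes for a protein of neuronal synapses, had 0.32 with a wide interval of -0.82 to 1.45.

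**Figure D2:**
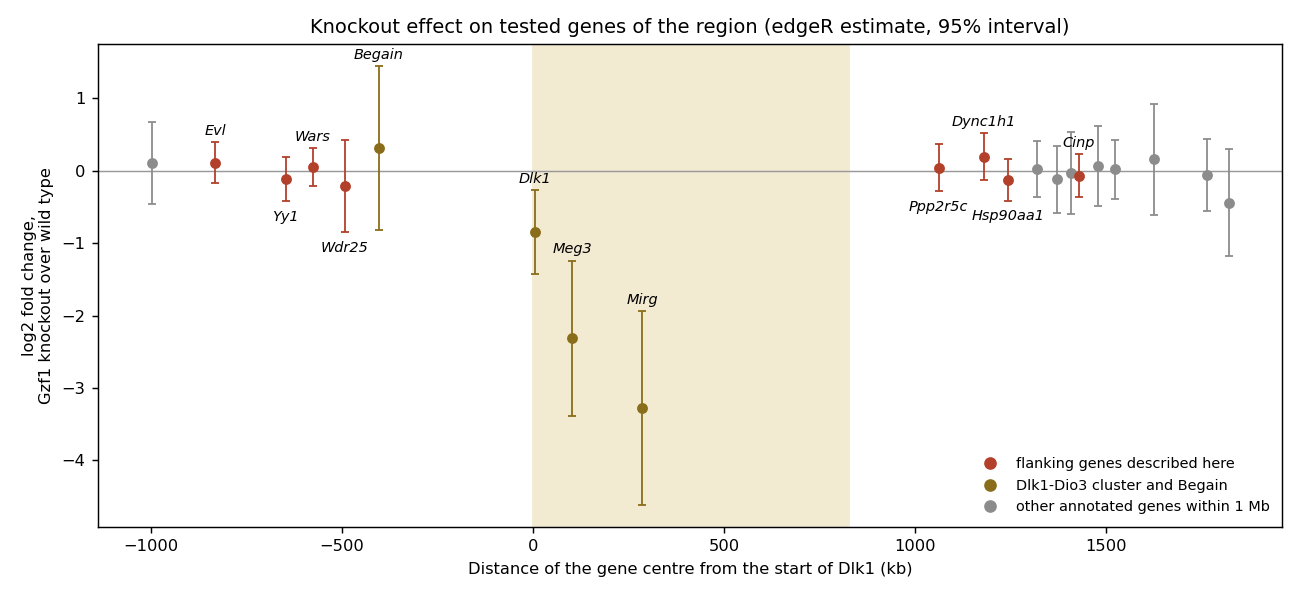
Log2 fold change of knockout over wild type with 95% interval (y axis) against the distance of each tested gene's centre from the start of Dlk1 in kb (x axis); the shaded band runs from Dlk1 to Dio3. The 8 flanking genes lie between -0.21 and 0.20 on both sides, while Dlk1 lies at -0.85, Meg3 at -2.31 and Mirg at -3.28.

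Other annotated genes within 1 Mb of the cluster ends were counted as a wider neighbourhood. Of 17 rows 9 were tested, and 0 passed for the knockout in edgeR and DESeq2 (0 at an unadjusted p under 0.05 in either), with log2 fold changes from -0.44 for Amn (SE 0.35) to 0.16 for Rcor1 (SE 0.36) and a median of 0.02. The family members and partners of the flanking genes gave 0 of 26 tested rows for the knockout by either tool, with 0 at an unadjusted p under 0.05 and a median of 0.00.

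The flanking genes did differ between the cell lines. In the same fit, with genotype as the other term, 6 of the 8 tested genes passed the threshold for RGM cells against the run1 lines, 1 higher and 5 lower in RGM. Over all tested genes 45.3% passed, 22.2% higher and 23.1% lower, so a line difference was common in these libraries, and that of the flanking genes is not set apart from the rest by a test. Their median log2 fold change was -0.49, beside -0.02 over all tested genes. Run and cell line coincide except for the Cas9-GFP library, so the effects of line and of run cannot be told apart. Library depth moved with the lines too, as given above, and so did fibroblast markers of feeder cells.

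Cinp, on the side of Dio3, was at 36.2 to 43.0 CPM in the 4 RGM libraries and at 65.2 to 88.3 CPM in the 5 run1 libraries. The ranges were far apart, and RGM cells had 1.99-fold less (log2 fold change -0.99, SE 0.14, adjusted p = 8.5e-05). Dync1h1 was at 86.4 to 112 CPM in RGM and 113 to 192 CPM in run1 libraries (-0.71, SE 0.16, adjusted p = 0.0020). Its groups did not overlap, but the Cas9-GFP library at 113 CPM came close to the RGM cells. Ppp2r5c was at 180.0 to 215 CPM in RGM and 203 to 339.8 CPM in run1 libraries (-0.46, SE 0.15, adjusted p = 0.023). Its groups overlapped through the Cas9-GFP library, and it no longer passed when wild-type replicate 3 (adjusted p = 0.077), knockout replicate 1 (0.092) or knockout replicate 2 (0.10) was left out.

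On the side of Dlk1, Yy1 was at 105 to 127 CPM in RGM and 140.5 to 209.9 CPM in run1 libraries, 1.57-fold lower in RGM (log2 fold change -0.65, SE 0.15, adjusted p = 0.0024). Wars was at 63.5 to 82.5 CPM in RGM and 98.2 to 112 CPM in run1 libraries (-0.51, SE 0.12, adjusted p = 0.0043). Evl had the opposite sign, at 79.3 to 79.7 CPM in RGM and 44.7 to 61.1 CPM in run1 libraries, 1.41-fold higher in RGM (0.50, SE 0.13, adjusted p = 0.0069). For these 3 genes, and for Dync1h1 and Cinp, the RGM libraries did not overlap the run1 libraries, a separation that 38.6% of all tested genes showed. Wdr25 (0.042, SE 0.30) and Hsp90aa1 (-0.091, SE 0.14, interval -0.38 to 0.20) did not pass. For Slc25a29, at 0.789 to 3.16 CPM in RGM and 0.209 to 1.38 CPM in run1 libraries, the fit without the filter gave 1.47 (SE 0.57, adjusted p = 0.033 in edgeR, 0.073 in DESeq2), with most of these values near the floor.

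The line difference was then read separately in knockout and in wild-type libraries. The 2 comparisons share no library but come from 1 fit with the spread of all 9 libraries, so they are not independent. Between RGM and V6.5 knockout libraries 4 of the 8 genes passed, Yy1, Ppp2r5c, Dync1h1 and Cinp, all lower in RGM, with 25.0% of all tested genes called (12.6% higher, 12.4% lower). Between RGM and run1 wild-type libraries 4 passed, Evl higher and Yy1, Wars and Cinp lower, with 24.4% of all tested genes called (12.1% higher, 12.3% lower). DESeq2 also called 4 there, with Dync1h1 in place of Evl (adjusted p = 0.053 for Evl). The Evl call, at an adjusted p of 0.045 in edgeR, was lost as well in the fit without the low-count filter (0.10), without both replicate 4 libraries (0.15) and without the Cas9-GFP library alone (0.24). The same held when replicate 1 or 2 of either genotype was left out (0.075 to 0.19). Cinp had -0.91 (SE 0.20) in the knockout and -1.10 (SE 0.21) in the wild-type libraries, and Yy1 had -0.65 (SE 0.21) and -0.66 (SE 0.22). Dync1h1 had -0.75 (SE 0.22) in the knockout and -0.68 (SE 0.24, adjusted p = 0.057) in the wild-type libraries. Among wild-type libraries the Yy1 call lay at the threshold (adjusted p = 0.04995) and was lost with RLE scaling (0.0503). The effect on Yy1 moved between -0.84 without wild-type replicate 3 and -0.46 without the Cas9-GFP library. The Wars call (0.036) was lost without the low-count filter (0.059). The effect on Wars moved between -0.73 without wild-type replicate 1 and -0.47 without wild-type replicate 2. Neither the Yy1 nor the Wars call held when any wild-type library, knockout replicate 1 or knockout replicate 2 was left out. The Yy1 call was also lost without both replicate 4 libraries. Each of these fits left 1 library in a group. With so few libraries the counts of called genes depended on single ones. Among knockout libraries the count was 0 without knockout replicate 1, 1 without knockout replicate 2, and 2 without knockout replicate 3 or wild-type replicate 1 or 2. Among wild-type libraries it was 0 without wild-type replicate 2. It was 1 when wild-type replicate 1, knockout replicate 1 or knockout replicate 2 was left out, and 2 when wild-type replicate 3 or 4 was.

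**Figure D3:**
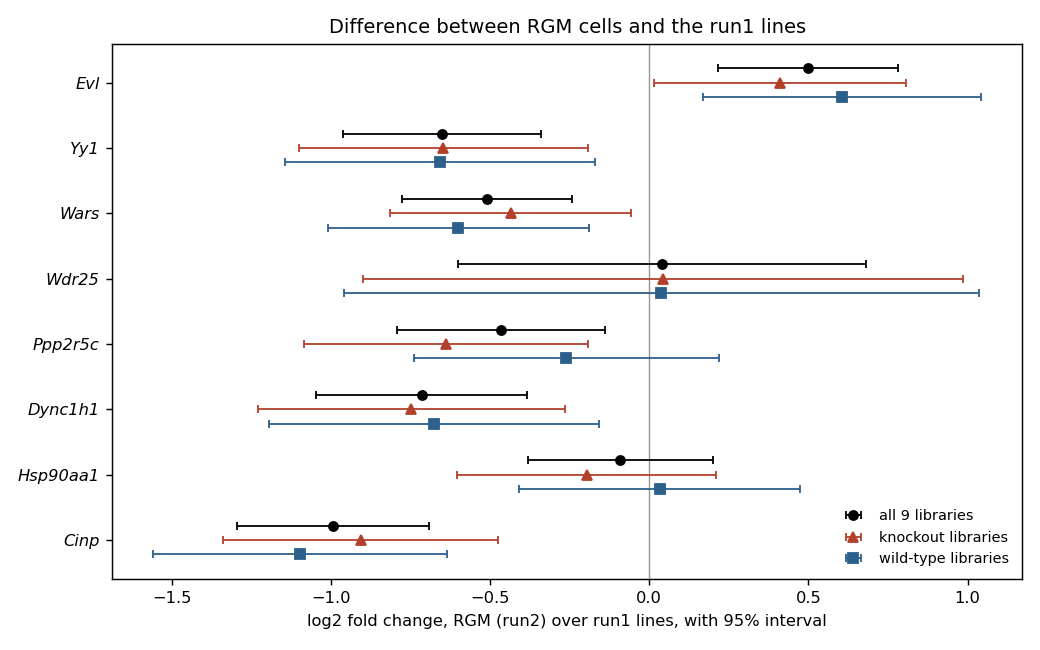
Log2 fold change of RGM cells over the run1 lines with 95% interval (x axis) for the 8 tested flanking genes, from all 9 libraries, from knockout libraries alone and from wild-type libraries alone. Evl lies right of 0 at 0.50, 5 genes lie left of 0 down to -0.99 for Cinp, and the intervals of Wdr25 and Hsp90aa1 span 0.

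The Cas9-GFP library was 1 sample and was not tested against V6.5. It had the lowest value of the 5 run1 libraries for Evl, Ppp2r5c, Dync1h1 and Hsp90aa1. Without it, leaving V6.5 cells alone in run1, the same 6 genes passed for the line. Dync1h1 then had -0.85 (SE 0.13), Ppp2r5c -0.60 (SE 0.14) and Evl 0.41 (SE 0.13).

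Fibroblast markers moved with the lines. Of 15 markers 14 were tested, and 12 were called higher and 0 lower in RGM, beside 22.2% and 23.1% of all tested genes. The tested markers had a median log2 fold change of 0.96. Their summed level was 3725 to 5482 CPM in knockout RGM and 4167 to 4573 CPM in wild-type RGM libraries, against 2268 to 3064 CPM in knockout run1 and 2126 to 2610 CPM in wild-type run1 libraries. The sum is weighted towards abundant genes. In wild-type replicate 1 Vim was at 1424, Fn1 at 963 and Sparc at 615 CPM, against 7.55 CPM for Dcn. Lum was at 0 counts in wild-type replicate 3, and no other marker was at 0 in any library. The part of remaining feeder RNA in the line differences of the flanking genes was not tested. In bulk samples, fewer cells of a type and less RNA per cell cannot be told apart.

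Of the family members and partners of the flanking genes 16 of 26 tested rows (61.5%) were called between the lines, 6 higher and 10 lower in RGM, beside 45.3% of all tested genes (22.2% higher, 23.1% lower). The excess over that share was not tested. The B56 subunits of protein phosphatase 2A were lower, Ppp2r5a by a log2 fold change of -0.90 (SE 0.15), Ppp2r5b of -0.67 (SE 0.19) and Ppp2r5e, in a row shared with AK010244, of -0.59 (SE 0.15), while Ppp2r5d had -0.36 (SE 0.20, adjusted p = 0.15). Families also held opposite signs. Enah, an Ena/VASP protein like Evl, was lower in RGM by -0.71 (SE 0.24) where Evl was higher, and Wars2, the mitochondrial tryptophanyl-tRNA synthetase, was higher by 1.00 (SE 0.31) where Wars was lower. Zfp42, a pluripotency gene of the YY1 family, was higher by 3.30 (SE 0.13), and the row of Yy2, shared with Mbtps2, was lower by -0.35 (SE 0.14).

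Partners of the dynein heavy chain were split. Dynll2 (-0.76, SE 0.16) and Dync1li1 (-0.68, SE 0.17) were lower in RGM, and Dynlrb1 (0.47, SE 0.15) and Dync1i2 (0.39, SE 0.14) were higher. The rows of Dync1li1 and Dync1i2 are shared with 1 other transcript each. Among the partners listed with Cinp, the kinase gene Cdk2 was higher in RGM by 1.39 (SE 0.13), and the checkpoint genes Atr (-0.58, SE 0.15) and Atrip, in a row shared with Trex1 (-0.71, SE 0.17), were lower. Of the relatives of Hsp90aa1, Hsp90b1 of the endoplasmic reticulum was higher by 0.59 (SE 0.11), and Hsp90ab1 (0.11, SE 0.13) and Trap1 (0.24, SE 0.12) did not pass. The mitochondrial carrier gene Slc25a20, a relative of Slc25a29, was lower by -0.90 (SE 0.24).

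Of the 9 other tested neighbours 4 (44.4%) passed for the line in edgeR and 3 in DESeq2, a share close to the 45.3% of all tested genes. Mok, a kinase gene that lies between Hsp90aa1 and Cinp, was higher in RGM by 1.70 (SE 0.22, adjusted p = 3.4e-05), whereas Cinp was lower. Amn was higher by 1.10 (SE 0.35, adjusted p = 0.019), and Ankrd9 (-0.65, SE 0.20, adjusted p = 0.015) and Rcor1 (-0.98, SE 0.38, adjusted p = 0.0499) were lower. Rcor1 was near the floor in RGM cells, with 9 and 2 counts in wild-type and 5 and 4 counts in knockout libraries.

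Over the 9 libraries the tested genes most like each called flanking gene, by Pearson correlation of log2 CPM, were Prss41 for Evl (r = 0.98), Spats2l for Yy1 (r = 0.99), AK043075 for Wars (r = 0.98), Rfc1 for Ppp2r5c (r = 0.97), Il2rg for Dync1h1 (r = 0.98) and Myo5c for Cinp (r = 0.99). The 9 points share the split by run, which alone gives high correlations among genes that differ between the lines.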

How the data were processed

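Poly(A)+ RNA of 9 libraries was profiled with MARS-seq2.0, which counts 3' ends, per the labels' protocols. The authors deposited raw counts per gene symbol. The submitters' processing notes list STAR, DESeq2 and mm10 with neither role nor version. No source used here gives the counter, the annotation, the strand setting or the handling of molecular identifiers.

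The 92 spike-in rows were left out, since 1 held a count. Genes were kept with filterByExpr (minimum count 10, by genotype), which left 12645. The robust quasi-likelihood test of edgeR 4.0.16 (R 4.3.3) was run on these counts after TMM scaling, the model holding genotype and run. Benjamini-Hochberg adjustment covered all tested genes (threshold 0.05). Adjusted p-values with no other tool named come from edgeR. SE was obtained from each log2 fold change and its F statistic, and intervals are 95%. Effects within a run, within a genotype and their difference came from a fit with 4 groups. CPM use the scaled library sizes. The code was checked on simulated data.

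Alternatives were DESeq2 1.42.0, other scaling, no filter, no run term, the replicate number as a block, and leaving out libraries. Floors cover counting error only. Separate cultures are not stated in the labels, so p-values reflect library-to-library spread alone, possibly technical. No 2 libraries of a group agreed within sampling noise (chi-square per degree of freedom 2.48 to 24.0). The flanking genes and lists were chosen with earlier results of these data known. Named were the 10 genes, called neighbours (and, chosen after their values were seen, the neighbours at either end of the knockout range), the called relatives and partners with the uncalled Ppp2r5d, Hsp90ab1 and Trap1, cluster genes for comparison, and the gene most like each gene called between lines.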

Additional observations from a re-analysis of the deposited data

Results flagged for a closer look

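In 40 groups of 4 or 5 libraries (10 genes, grouped by genotype and by line) 4 values stood apart from the rest of their group by Dixon's test, and chance flags about 1 in 20 groups. Groups by genotype mix cell lines, and run1 groups mix V6.5 with Cas9-GFP, so that rate holds only where lines do not differ. Evl was at 44.7 CPM in the Cas9-GFP library, wild-type replicate 4, the next lowest run1 library being at 58.7 CPM. Ppp2r5c was at 296 CPM in wild-type replicate 3, the only wild-type V6.5 library, the next wild-type library being at 215 CPM. The V6.5 knockout libraries were at 293, 233 and 339.8 CPM, so this value lay within the range of V6.5 cells. Slc25a29 was at 2.43 CPM in wild-type replicate 1, against 0.824 CPM in the next, and Degs2 was at 0 CPM in wild-type replicate 2, against 0.539 CPM in the next, and both rest on fewer than 10 counts.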

How the results depend on the processing

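The count of 0 flanking genes for the knockout held under all 16 alternatives, and within RGM, within run1 and for the difference between runs under all 14 run there. The line count of 6 of 8 tested genes stayed between 5 and 7. It was 7 of 10 tested genes without the low-count filter and 7 of 9 without wild-type replicate 2. In each of these fits the added call was Slc25a29, which was not tested in the main fit. All genes called for the knockout numbered 4, against 35 without the filter, 7 with DESeq2, 9 with DESeq2 and no filter (added after seeing the data), 2 without the run term and 2 to 4 when 1 library was left out (2 on leaving out knockout replicate 1 or 2, or replicate 1, 3 or 4 of the wild type). The line counts ranged over 0 to 4 among knockout and 0 to 5 among wild-type libraries when 1 library was left out. Signs turned for knockout effects that had not passed. Ppp2r5c (0.040) had -0.036 with the replicate block, -0.063 with both replicate 4 libraries left out (added after seeing the data) and -0.11 to 0.12 without single libraries. Cinp had 0.0024 without the run term and -0.13 to 0.011 without single libraries, and Hsp90aa1 -0.27 to 0.0038. For the line, Wdr25 had -0.13 with both replicate 4 libraries left out and -0.17 to 0.22 without single libraries, and Hsp90aa1 -0.22 to 0.010. The causes were not tested. Deviations of same-numbered libraries from their group means correlated at -0.065 for numbers 1 and 2, 0.30 for 3 and 0.34 for 4. Across numbers, wild-type 3 with knockout 4 gave -0.34 and wild-type 4 with knockout 3 gave -0.30. These across-number values follow from the same-numbered ones, since each run held 2 wild-type libraries, whose deviations from their mean are equal and opposite. For the same reason numbers 1 and 2 share 1 value, and those for 3 and 4 are not independent. The correlations therefore cannot decide whether same-numbered libraries varied together, and whether they were paired was not tested. With the replicate number as a block, 0 flanking genes and 6 genes in all passed.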

Other observations

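Evl was at 79.3 to 79.7 CPM in the 4 RGM libraries, an SD of 0.167 CPM. Counting error alone for its 201 to 295 counts in these libraries has an SD of 5.82% to 7.05% of the value, so this closeness is narrower than counting error usually gives. It was noticed after the values were seen and was not tested.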
